A study of Mus musculus with 9 samples.

Results

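The Wnt ligands, their receptors and co-receptors, their secreted antagonists and the core of the beta-catenin relay were examined in mouse fat cell precursors that were turned into beige fat cells in culture. Members were chosen by symbol from the deposited table: every gene of the Wnt, Fzd, Sfrp, Dkk and Rspo families, together with Wif1, Lrp5, Lrp6, Ctnnb1, Axin1, Axin2, Tcf7l1, Tcf7l2 and Lef1. There were 50 such genes among 55359 in the table, and 31 of them passed the low-count filter and were tested. The cells were precursors of inguinal white adipose tissue (iWAT preadipocytes), sequenced as ribosome footprints, the mRNA fragments that ribosomes shield from RNase. Of 9 libraries, 3 came from cells without induction (day 0), 3 from cells differentiated for 4 days and 3 from cells differentiated for 8 days. The day 4 and day 8 cells had been put in a medium with dexamethasone, 3-isobutyl-1-methylxanthine, indomethacin, insulin, 3,3′,5-triiodo-L-thyronine and rosiglitazone, and after 2 days in one with insulin, triiodothyronine and rosiglitazone alone. The labels give no strain, age or number of animals, and replicates may therefore be technical.

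Wnt proteins are secreted, lipid-bearing signals that bind a Frizzled receptor and, in the canonical branch, an Lrp5 or Lrp6 co-receptor. Binding halts the destruction complex built on axin, so that beta-catenin (Ctnnb1) gathers and acts with TCF/LEF factors on target genes. Other Wnts act without beta-catenin through Frizzled, Ror and related receptors. In fat tissue, canonical Wnt signalling is best known for holding precursors back from becoming fat cells, and Wnt10b is its classical ligand in mouse preadipocytes. Secreted Frizzled-related proteins (Sfrp) and Dickkopf proteins (Dkk) limit the signal outside the cell, whereas R-spondins (Rspo) raise it.

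The libraries held 30823028 to 38994892 counts. The 9 preadipocyte markers all passed the filter and summed to 3215 to 3296 CPM (counts scaled to library size) at day 0, 980.5 to 2223 at day 4 and 708 to 1026 at day 8. Of the 9 adipocyte markers 8 passed, and the list summed to 261 to 325 CPM at day 0, 33680 to 53380 at day 4 and 50900 to 54690 at day 8. All 7 smooth muscle and pericyte markers passed and summed to 2789 to 4346, 142 to 340.1 and 277 to 394 CPM at days 0, 4 and 8. Lists of endothelial (6 of 8 past the filter), macrophage (7 of 8), mesothelial (2 of 6), epithelial (1 of 6), Schwann cell (4 of 5) and skeletal muscle genes (1 of 6, with Pax7 and Myod1 at 0) summed to at most 107 CPM in any library. Day 4 replicate 2 stood apart from the other libraries of its day, with a preadipocyte sum of 2223 CPM against 980.5 and 1153. Its adipocyte sum was the lowest of that day, at 33680 CPM against 51650 and 53380. Day 8 replicate 3 had the highest preadipocyte sum of its day at 1026 CPM against 729 and 708. Its adipocyte sum was 50900 CPM against 54690 and 52280. Member calls that are gained or lost without these libraries are given below. Many member levels moved with the preadipocyte and contractile sums, whose part in the results was not tested, and in these bulk libraries fewer cells of a type and fewer footprints per cell cannot be told apart.

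Most Wnt members that passed the filter were lower after induction. At day 4, 18 of the 31 were lower and 4 higher than at day 0 by edgeR's quasi-likelihood test (adjusted p under 0.05 over all tested genes), with a median log2 fold change of -1.003. Of all 14714 tested genes, 58.2% were called in that comparison (28.4% lower and 29.8% higher), with a median of -0.02. At day 8, 21 members were lower and 5 higher than at day 0, with a median of -1.38, beside 67.7% of all genes called (33.5% lower and 34.2% higher) and a median of -0.01. From day 4 to day 8 fewer moved: 8 were lower and 3 higher at day 8 (median -0.30), beside 31.8% of all genes (17.1% lower and 14.7% higher; median -0.02). Without day 4 replicate 2 and day 8 replicate 3 together the counts were 20 lower and 5 higher at day 4, 22 lower and 6 higher at day 8, and 9 lower and 5 higher between the later days. Of all 15012 genes then tested, 10001 were called at day 4, 10638 at day 8 and 5481 between the later days. With all libraries 8563, 9961 and 4676 of 14714 were called, so calls over all genes rose as well. Wnt2, Wnt2b and Fzd9 lay near the limit of the filter. A gene of low level that passes only through the day where it is high is more likely to differ. These counts therefore describe the tested members and not the whole family.

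**Figure D1:**
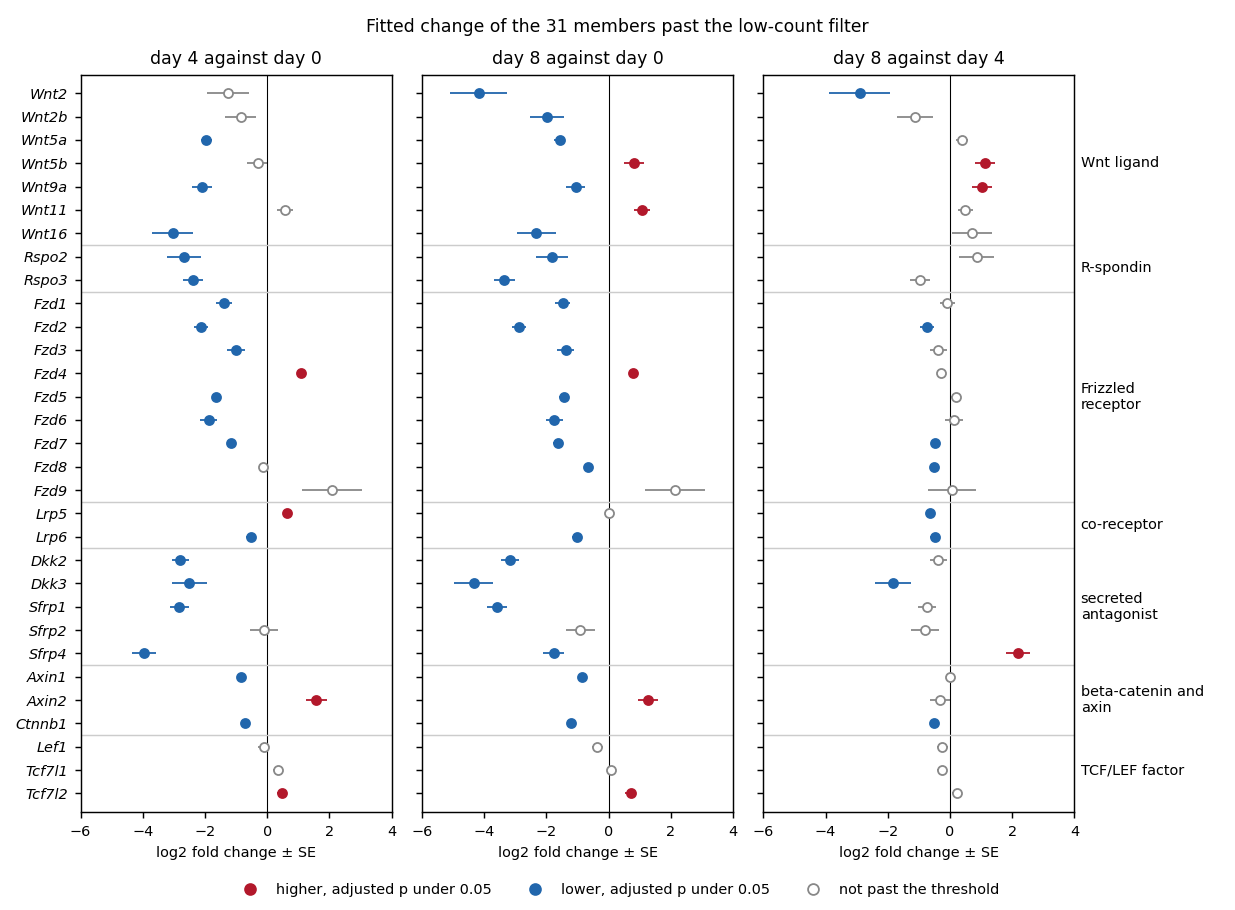
Fitted log2 fold change (horizontal axis, bars show ± 1 SE) of the 31 tested members in each of the 3 comparisons, grouped by role; 3 libraries per day. Blue points are lower and red points higher past the test, and open points did not pass it: in both comparisons against day 0 most points lie left of 0, while Fzd4, Axin2 and Tcf7l2 lie right of it.

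The promoters of 4 genes are shown. Wnt11 and Fzd1 were picked because they hold the motif searched for, and Axin2 and Fzd4 as genes higher at both later days without it. Which of these 4 windows hold a match was therefore fixed by the choice. Wnt11, Axin2 and Fzd4 were higher at day 8 than at day 0, and Fzd1 was lower. The letters are the 250 bases before each gene's start, from the RefSeq promoter table (GRCm38.p6, an earlier build than that of the counts), which had entries for 18 of the 31 tested members. Capitals mark the core of TCF/LEF sites searched for here, CTTTGA, or TCAAAG where it lies on the other strand.
Wnt11, chr7:98834862-98835111 (+ strand): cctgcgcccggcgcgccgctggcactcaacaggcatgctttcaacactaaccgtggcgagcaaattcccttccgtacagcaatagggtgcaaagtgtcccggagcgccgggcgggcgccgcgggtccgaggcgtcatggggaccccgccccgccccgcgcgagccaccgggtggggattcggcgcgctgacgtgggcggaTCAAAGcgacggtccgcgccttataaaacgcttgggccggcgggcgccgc
Fzd1, chr5:4758217-4758466 (- strand): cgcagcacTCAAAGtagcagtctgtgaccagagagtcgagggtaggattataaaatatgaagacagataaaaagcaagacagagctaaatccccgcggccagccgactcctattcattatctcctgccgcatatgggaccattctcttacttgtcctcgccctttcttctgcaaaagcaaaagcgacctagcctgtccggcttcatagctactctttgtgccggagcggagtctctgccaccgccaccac
Axin2, chr11:108920099-108920348 (+ strand): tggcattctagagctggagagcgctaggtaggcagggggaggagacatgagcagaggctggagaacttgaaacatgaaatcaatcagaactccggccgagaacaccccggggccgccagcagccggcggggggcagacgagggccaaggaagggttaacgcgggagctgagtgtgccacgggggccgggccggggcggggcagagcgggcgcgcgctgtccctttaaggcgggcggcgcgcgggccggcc
Fzd4, chr7:89404116-89404365 (+ strand): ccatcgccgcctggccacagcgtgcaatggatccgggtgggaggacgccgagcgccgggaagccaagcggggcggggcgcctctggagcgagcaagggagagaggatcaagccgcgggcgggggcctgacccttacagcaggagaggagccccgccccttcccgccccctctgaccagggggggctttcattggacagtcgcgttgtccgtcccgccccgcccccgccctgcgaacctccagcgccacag
For Wnt11 the table holds 2 windows, of which the one with the lower start coordinate is printed, and the other holds no match. The match in the printed window starts 50 bases before the gene start and the Fzd1 match 242 bases before it, and the Axin2 and Fzd4 windows hold neither form. Over the 26 windows of the 18 members 4 held the motif (15.4%), beside 4544 of the 32851 windows of all genes (13.8%). A match of these 6 letters describes the window and does not show that a factor binds there.

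Of the 7 ligands tested, 3 were lower at day 4 and the other 4 did not pass the test, and at day 8 there were 5 lower and 2 higher. Among the 5 were Wnt2 and Wnt2b, which lay near the limit of the filter. Of all tested genes 28.4% were lower and 29.8% higher at day 4, and 33.5% and 34.2% at day 8. These shares stand beside the counts of each class below as well, and no class was tested against them. Wnt5a, a ligand best known for signalling without beta-catenin, stood at 82.7, 59.8 and 53.6 CPM in day 0 replicates 1 to 3, at 19.8, 15.3 and 15.3 CPM at day 4 and at 23.4, 18.8 and 23.6 CPM at day 8. All later libraries lay below all day 0 libraries, and Wnt5a was 3.89-fold lower at day 4 (log2 -1.96 ± 0.18 SE, adjusted p = 1.59e-05) and 2.98-fold lower at day 8 (-1.57 ± 0.18, adjusted p = 4.39e-05). Wnt9a, a ligand known from joint development, was at 4.26, 3.43 and 3.64 CPM at day 0, 1.25, 0.688 and 0.705 CPM at day 4 and 1.48, 2.54 and 1.399 CPM at day 8. It was lowest at day 4 (-2.10 ± 0.32 against day 0), and at day 8 it was above every day 4 library but still below day 0 (-1.06 ± 0.31, adjusted p = 0.0108).

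Wnt16, a ligand known for its part in bone, had 33.4, 36.2 and 52.3 CPM at day 0, 2.01, 11.4 and 1.44 CPM at day 4 and 7.59, 5.82 and 10.9 CPM at day 8. Day 4 replicate 2 was several times above the other day 4 libraries, yet every later library lay below every day 0 library. Wnt16 was 8.19-fold lower at day 4 (-3.03 ± 0.66, adjusted p = 0.00285), or -4.56 on the log2 scale without day 4 replicate 2, and 5.004-fold lower at day 8 (-2.32 ± 0.63, adjusted p = 0.00811).

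Wnt11, a ligand that mostly acts without beta-catenin, went the other way. It stood at 1.37, 1.86 and 1.297 CPM at day 0, 2.85, 2.04 and 1.86 CPM at day 4 and 3.097, 3.69 and 2.69 CPM at day 8. Every day 8 library lay above day 0, whereas day 4 replicate 3 was nearly level with the highest day 0 library. Wnt11 was 2.095-fold higher at day 8 (1.07 ± 0.25, adjusted p = 0.00376), while its day 4 value of 0.58 ± 0.25 did not pass the test (adjusted p = 0.0755). Wnt5b, a close relative of Wnt5a, stood at 1.4003, 1.14 and 0.6897 CPM at day 0, 0.988, 0.9902 and 0.6201 CPM at day 4 and 2.37, 1.63 and 1.65 CPM at day 8. Its day 8 libraries lay above all others, at 0.81 ± 0.33 against day 0 (adjusted p = 0.0497), a call close to the threshold. That call was lost without day 0 replicate 2 or 3, day 4 replicate 1 or any 1 of the day 8 libraries (0.56 to 0.91, adjusted p 0.0577 to 0.172). Library totals (0.79, adjusted p = 0.0606), upper quartile scaling (0.70, adjusted p = 0.0811) and no low-count filter (0.82, adjusted p = 0.0647) lost it too. So did a 1.5-fold threshold. At day 4 Wnt5b was -0.31 ± 0.34 (adjusted p = 0.454). Wnt5b overlaps Fbxl14 in the RefSeq gene table, and no label gives the strand setting of the counting, so its counts are less certain.

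Wnt2 and Wnt2b, sister ligands known from lung development, were near the limit of detection. Wnt2 had 41, 12 and 20 counts at day 0, 4, 22 and 6 at day 4 and 0, 2 and 2 at day 8. Its level was 1.25, 0.371 and 0.552 CPM at day 0, 0.116, 0.605 and 0.169 CPM at day 4 and 0, 0.0534 and 0.05597 CPM at day 8, with day 4 replicate 2 within the day 0 range. Wnt2b had 21, 9 and 15 counts, or 0.639, 0.278 and 0.414 CPM, at day 0, 7, 14 and 5 counts, or 0.203, 0.385 and 0.141 CPM, at day 4, and 2, 6 and 4 counts, or 0.0558, 0.1603 and 0.112 CPM, at day 8. Both were lower at day 8 than at day 0 (-4.17 ± 0.92 and -1.98 ± 0.56, adjusted p = 0.00248 and 0.00958) with no overlap between the days. Both genes passed the filter only through their day 0 libraries and day 4 replicate 2. Such a pass favours a fall and a lack of overlap at day 8, so these calls show less than their adjusted p. Wnt2 stood at -3.53 without day 0 replicate 1, which held most of its day 0 counts. At day 4 neither passed the test (-1.26 ± 0.68 and -0.85 ± 0.50, adjusted p = 0.136 and 0.168), and Wnt2 did without day 4 replicate 2 (-2.31, adjusted p = 0.0159). Wnt2b overlaps St7l in the RefSeq gene table.

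The other 12 ligands did not pass the filter. Wnt1, Wnt3, Wnt3a, Wnt7a, Wnt8a and Wnt10a had 0 counts in all 9 libraries, as did the antagonists Dkk1 and Dkk4, which allows a level of up to 0.0802 to 0.0928 CPM in a library (3 counts, counting error only). Wnt10b, the ligand most often tied to the block on fat cell formation, had 9, 3 and 2 counts at day 0, 4, 5 and 0 at day 4 and 0, 0 and 3 at day 8. Wnt4, a ligand known from kidney and gonad development, had 14, 4 and 4 counts at day 0, 3, 9 and 0 at day 4 and 1, 7 and 7 at day 8. Wnt8b had counts at day 8 alone (1, 5 and 1), Wnt6 had 7 counts in all, Wnt7b 6 and Wnt9b 4. Wif1 (17 counts in all), Rspo1 (7) and Rspo4 (2) did not pass the filter either, and the same holds for Fzd10 and Sfrp5. Fzd10, a further Frizzled receptor, had 7, 8 and 15 counts at day 0, 1, 8 and 0 at day 4 and 1, 1 and 2 at day 8 (43 in all), so its day 8 libraries lay below day 0. Sfrp5, a Frizzled-related antagonist, had 5, 3 and 3 counts at day 0, 0, 4 and 4 at day 4 and 0, 0 and 0 at day 8 (19 in all). In the alternative without a low-count filter, which tested 26823 genes, both were called lower at day 8 than at day 0 (adjusted p = 0.0213 for Fzd10 and 0.0244 for Sfrp5). None of the other 9 members below the filter with any counts was called there in the 3 comparisons (edgeR's quasi-likelihood test, adjusted p 0.0834 to 1).

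**Figure D2:**
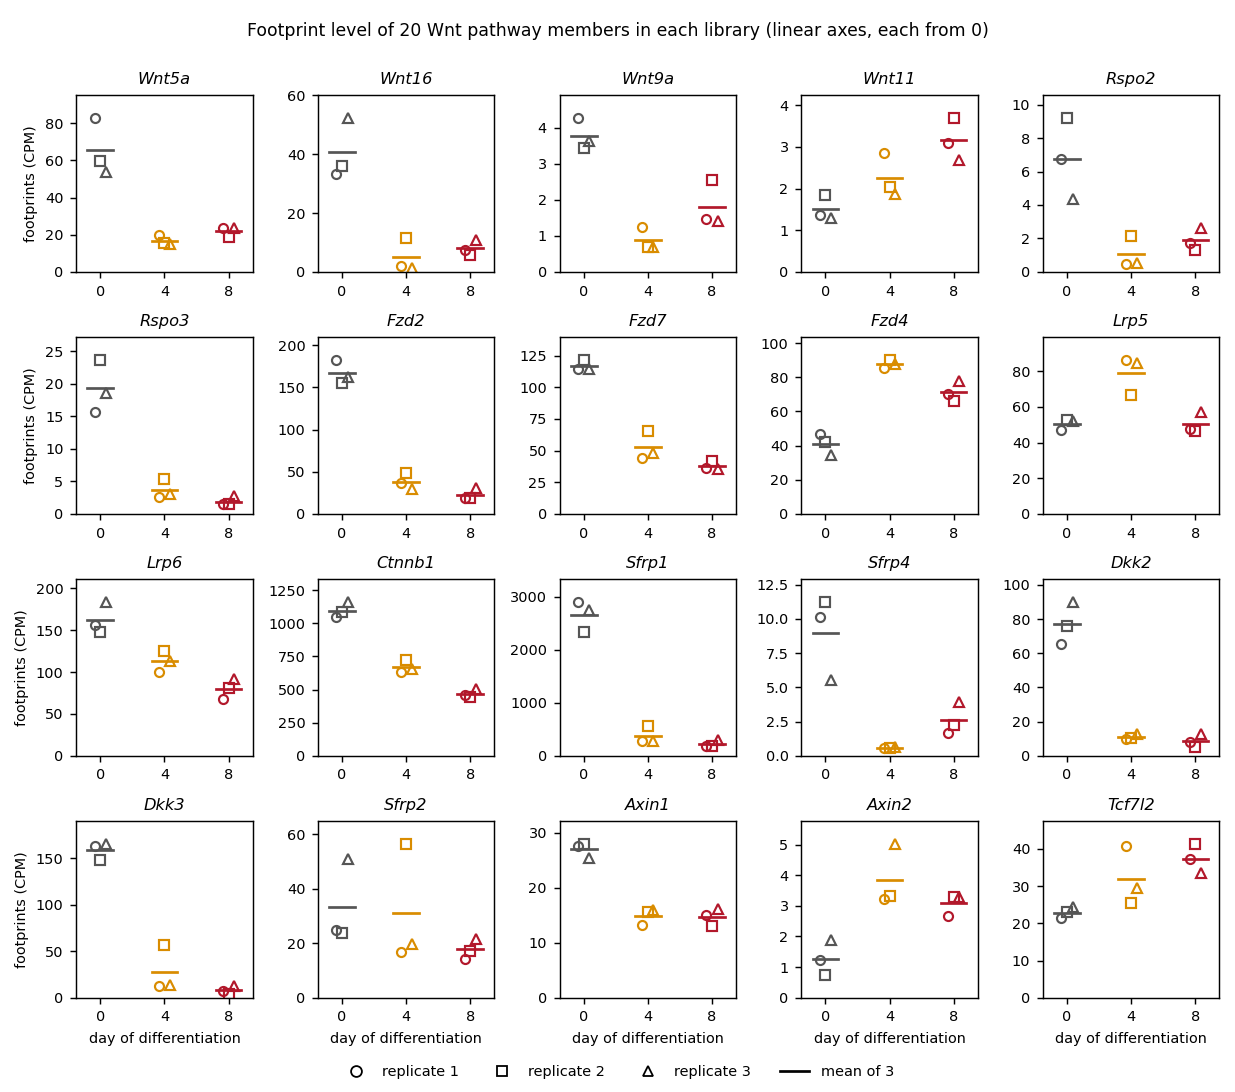
Footprint level in CPM (vertical axes, linear and from 0) of 20 members against day of differentiation; each point is 1 library, with its shape giving the replicate number, and each line is the mean of 3. Sfrp1, Dkk2, Dkk3, Fzd2 and Wnt5a lie far below day 0 at both later days, Sfrp4 and Wnt9a are lowest at day 4, Lrp5 peaks at day 4, and Fzd4, Axin2, Wnt11 and Tcf7l2 lie above day 0.

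Both R-spondins that could be tested fell. R-spondins bind Lgr receptors and so spare Frizzled receptors from removal by the ubiquitin ligases Rnf43 and Znrf3. Rspo3 stood at 15.7, 23.6 and 18.5 CPM at day 0, 2.59, 5.36 and 3.1005 CPM at day 4 and 1.45, 1.47 and 2.74 CPM at day 8. It was 5.22-fold lower at day 4 (-2.38 ± 0.32) and 10.2-fold lower at day 8 (-3.35 ± 0.34, adjusted p = 2.11e-05), with every later library below day 0. Rspo2 stood at 6.73, 9.19 and 4.36 CPM at day 0, 0.465, 2.15 and 0.536 CPM at day 4 and 1.76, 1.34 and 2.63 CPM at day 8. It too lay below day 0 in every later library, at -2.68 ± 0.55 at day 4 (-3.74 without day 4 replicate 2) and -1.82 ± 0.53 at day 8 (adjusted p = 0.0111).

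Of the 9 Frizzled receptors tested, 6 were lower and 1 higher at day 4, and 7 were lower and 1 higher at day 8. Frizzleds are the membrane receptors that Wnts bind first. Fzd1, Fzd2 and Fzd7 are closely related, and all of them fell. Fzd2 had 182, 156 and 163 CPM at day 0, 37.1, 48.4 and 29.1 CPM at day 4 and 18.9, 18.9 and 30.4 CPM at day 8. It was 4.37-fold lower at day 4 (-2.13 ± 0.23, adjusted p = 3.58e-05) and 7.33-fold lower at day 8 (-2.87 ± 0.23, adjusted p = 5.28e-06), with no overlap with day 0. Fzd7 had 114, 122 and 114 CPM at day 0, 44.4, 65.5 and 48.1 CPM at day 4 and 36.6, 41.5 and 35.2 CPM at day 8. Fzd1 had 103, 73.8 and 81.9 CPM at day 0, 31.6, 45.2 and 21.4 CPM at day 4 and 25.9, 29.98 and 36.8 CPM at day 8. Both lay below day 0 in every later library, Fzd7 at -1.15 ± 0.14 at day 4 and -1.63 ± 0.15 at day 8, and Fzd1 at -1.39 ± 0.25 and -1.48 ± 0.25.

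Fzd5 and Fzd8, another pair of related receptors, differed in timing. Fzd5 stood at 36.4, 30.8 and 29.4 CPM at day 0, 11.7, 11.1 and 8.48 CPM at day 4 and 13.3, 10.3 and 11.8 CPM at day 8, lower at -1.63 ± 0.16 at day 4 and -1.45 ± 0.16 at day 8 with no overlap with day 0. Fzd8 stood at 36.9, 35.5 and 48.004 CPM at day 0, 39.1, 36.1 and 34.02 CPM at day 4 and 24.9, 26.2 and 25.7 CPM at day 8. Its day 4 libraries overlapped those of day 0 (-0.14 ± 0.12, adjusted p = 0.348), and its day 8 libraries lay below both (-0.65 ± 0.12 against day 0, adjusted p = 0.00107).

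Fzd3 and Fzd6, receptors best known from planar cell polarity, fell at both days. Fzd6 had 5.81, 5.29 and 4.88 CPM at day 0, 1.42, 1.57 and 1.35 CPM at day 4 and 1.09, 1.34 and 2.35 CPM at day 8. Fzd3 had 4.93, 4.42 and 5.71 CPM at day 0, 2.73, 2.64 and 2.14 CPM at day 4 and 1.26, 1.74 and 2.798 CPM at day 8. No later library of either reached a day 0 level, with log2 fold changes of -1.88 ± 0.28 and -1.74 ± 0.28 for Fzd6 and -1.003 ± 0.28 and -1.38 ± 0.28 for Fzd3 at days 4 and 8.

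Fzd4, a receptor of Wnts and of the vascular ligand norrin, was the 1 Frizzled that rose. It stood at 47.03, 42.05 and 34.2 CPM at day 0, 85.5, 90.1 and 87.999 CPM at day 4 and 70.5, 66.05 and 77.8 CPM at day 8. Every later library was above every day 0 library, 2.14-fold at day 4 (1.10 ± 0.12, adjusted p = 5.37e-05) and 1.74-fold at day 8 (0.80 ± 0.12, adjusted p = 0.000287). Fzd4 overlaps Tmem135 in the RefSeq gene table, so the 2 genes' reads may not be fully parted. Fzd9 had 0 to 16 counts at days 0 and 4 and 3 to 17 at day 8, or at most 0.454 CPM, and did not pass the test (2.08 ± 0.97 at day 4 and 2.14 ± 0.96 at day 8, adjusted p = 0.0901 and 0.0721). It was called without day 0 replicate 1 at both days (3.89 and 3.94, adjusted p = 0.0329 and 0.025) and without day 8 replicate 3 at day 8 (2.57, adjusted p = 0.0365).

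The co-receptors parted from each other. Lrp5 had 46.8, 52.5 and 51.9 CPM at day 0, 86.2, 66.7 and 84.7 CPM at day 4 and 47.6, 46.5 and 57.3 CPM at day 8. It was 1.57-fold higher at day 4 than at day 0 (0.65 ± 0.13, adjusted p = 0.00166), and at day 8 it overlapped day 0 (0.002 ± 0.13, adjusted p = 0.991). Lrp6 had 156, 148 and 184 CPM at day 0, 99.6, 126 and 113 CPM at day 4 and 67.4, 80.9 and 91.2 CPM at day 8. It was lower at each later day with no overlap between any 2 days, at -0.53 ± 0.14 at day 4 (adjusted p = 0.0094) and -1.03 ± 0.14 at day 8 (adjusted p = 0.000145).

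Of the 5 secreted antagonists that could be tested, 4 were lower at both days. Sfrp1, which binds Wnts through a Frizzled-like domain, stood at 2898, 2341 and 2748 CPM at day 0, 283, 566 and 275 CPM at day 4 and 188, 189 and 289 CPM at day 8. Day 4 replicate 2 was the highest of the later libraries and still far below day 0. Sfrp1 averaged 375 ± 166 CPM at day 4 against 2663 ± 288 at day 0 (SD, n = 3 each), 7.104-fold lower (-2.83 ± 0.31, adjusted p = 4.13e-05). At day 8 it averaged 222 ± 58.1 CPM (SD, n = 3), 12-fold below day 0 (-3.58 ± 0.32, adjusted p = 8.97e-06).

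Dkk2, which binds Lrp5 and Lrp6, had 65.4, 76.2 and 89.97 CPM at day 0, 9.998, 10.5 and 12.99 CPM at day 4 and 8.04, 5.18 and 12.6 CPM at day 8. No later library came near day 0, and Dkk2 was 6.92-fold lower at day 4 (-2.79 ± 0.28, adjusted p = 2.39e-05) and 8.99-fold lower at day 8 (-3.17 ± 0.29, adjusted p = 9.72e-06). Dkk3, the divergent member of the Dickkopf family, had 163, 148 and 165 CPM at day 0, 13.1, 56.99 and 14.1 CPM at day 4 and 7.53, 3.69 and 12.3 CPM at day 8. Day 4 replicate 2 stood well above the other day 4 libraries, and every later library lay below day 0. Dkk3 was 5.65-fold lower at day 4 (-2.50 ± 0.57, adjusted p = 0.00409), or -3.54 on the log2 scale without that library, and 20.3-fold lower at day 8 (-4.34 ± 0.63, adjusted p = 0.000186).

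Sfrp4, another Frizzled-related protein, dipped at day 4 and was partly back at day 8. It stood at 10.1, 11.2 and 5.55 CPM at day 0, 0.552, 0.5501 and 0.6201 CPM at day 4 and 1.67, 2.24 and 3.95 CPM at day 8, and no 2 days overlapped. It was 15.5-fold lower at day 4 (-3.95 ± 0.40, adjusted p = 2.36e-05) and 3.41-fold lower at day 8 (-1.77 ± 0.34, adjusted p = 0.00115) than at day 0. Sfrp2, a Frizzled-related protein of the same subgroup as Sfrp1, had 24.8, 23.9 and 51.04 CPM at day 0, 16.8, 56.4 and 19.8 CPM at day 4 and 14.3, 17.3 and 21.6 CPM at day 8. Day 0 replicate 3 and day 4 replicate 2 stood high. The day 8 libraries lay below day 0 and the day 4 libraries overlapped it, and neither day passed the test (-0.10 ± 0.45 at day 4 and -0.91 ± 0.46 at day 8, adjusted p = 0.861 and 0.103). Without day 4 replicate 2 Sfrp2 was called lower at both days (-0.86 and -0.91, adjusted p = 0.033 and 0.0124). At day 8 it was also called lower with only the libraries compared (-0.903, adjusted p = 0.0187) and without a low-count filter (-0.896, adjusted p = 0.0336). Without day 0 replicate 3, day 4 replicate 1 or day 4 replicate 3 its day 4 value was above 0 (0.35, 0.20 and 0.14).

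Among the genes of the relay inside the cell, footprints of Ctnnb1 and of the scaffold gene Axin1 fell while those of Axin2 rose. Protein levels were not measured. Ctnnb1 had 1045, 1084 and 1161 CPM at day 0, 633, 723 and 658 CPM at day 4 and 462, 442 and 505 CPM at day 8. The 3 days did not overlap, and Ctnnb1 was 1.63-fold lower at day 4 (-0.71 ± 0.12, adjusted p = 0.000594) and 2.34-fold lower at day 8 (-1.23 ± 0.12, adjusted p = 1.52e-05). Axin1, which holds the destruction complex together, had 27.6, 27.97 and 25.4 CPM at day 0, 13.2, 15.5 and 15.98 CPM at day 4 and 15.1, 13.1 and 16.1 CPM at day 8, lower at -0.86 ± 0.12 and -0.87 ± 0.12 with no overlap with day 0. Axin2, the other axin, whose gene is a widely used target of beta-catenin, had 1.22, 0.743 and 1.88 CPM at day 0, 3.23, 3.33 and 5.02 CPM at day 4 and 2.68, 3.29 and 3.27 CPM at day 8. Every later library lay above every day 0 library, 2.997-fold at day 4 (1.58 ± 0.33, adjusted p = 0.00219) and 2.39-fold at day 8 (1.26 ± 0.33, adjusted p = 0.00631). These rest on 24 to 178 counts per library.

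The TCF/LEF factors, which carry beta-catenin to DNA, held 1 call at each later day, that of Tcf7l2. Tcf7l2 had 21.3, 22.96 and 24.4 CPM at day 0, 40.8, 25.4 and 29.5 CPM at day 4 and 37.3, 41.3 and 33.4 CPM at day 8. Its later libraries lay above day 0, at day 8 at 0.71 ± 0.17 (adjusted p = 0.00374) and at day 4 at 0.48 ± 0.17 (adjusted p = 0.0311). The day 4 call was lost without any 1 of the day 0 libraries or day 4 replicate 1 (0.27 to 0.53, adjusted p 0.0528 to 0.115). It was also lost under library totals (0.33, adjusted p = 0.112) or upper quartile scaling (0.35, adjusted p = 0.0921). The replicate block (0.463, adjusted p = 0.0551) and a 1.5-fold threshold lost it as well. Tcf7l1 had 18.5, 18.8 and 21.1 CPM at day 0, 28.3, 24.2 and 21.6 CPM at day 4 and 18.6, 24.4 and 18.8 CPM at day 8. Lef1 had 3.01, 3.56 and 2.704 CPM at day 0, 2.73, 2.75 and 3.07 CPM at day 4 and 2.37, 2.48 and 2.35 CPM at day 8. The day 4 libraries of Tcf7l1 lay above day 0 and the day 8 libraries of Lef1 below it. Neither gene passed the test, at 0.34 ± 0.14 and 0.08 ± 0.14 for Tcf7l1 (adjusted p = 0.0624 and 0.635) and -0.12 ± 0.18 and -0.36 ± 0.18 for Lef1 (adjusted p = 0.606 and 0.103) at days 4 and 8. Tcf7l1 was called at day 4 without day 4 replicate 3 or day 8 replicate 2 (0.43 and 0.36, adjusted p = 0.0427 and 0.0355), and without day 4 replicate 2 and day 8 replicate 3 together (0.36, adjusted p = 0.0473).

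**Figure D3:**
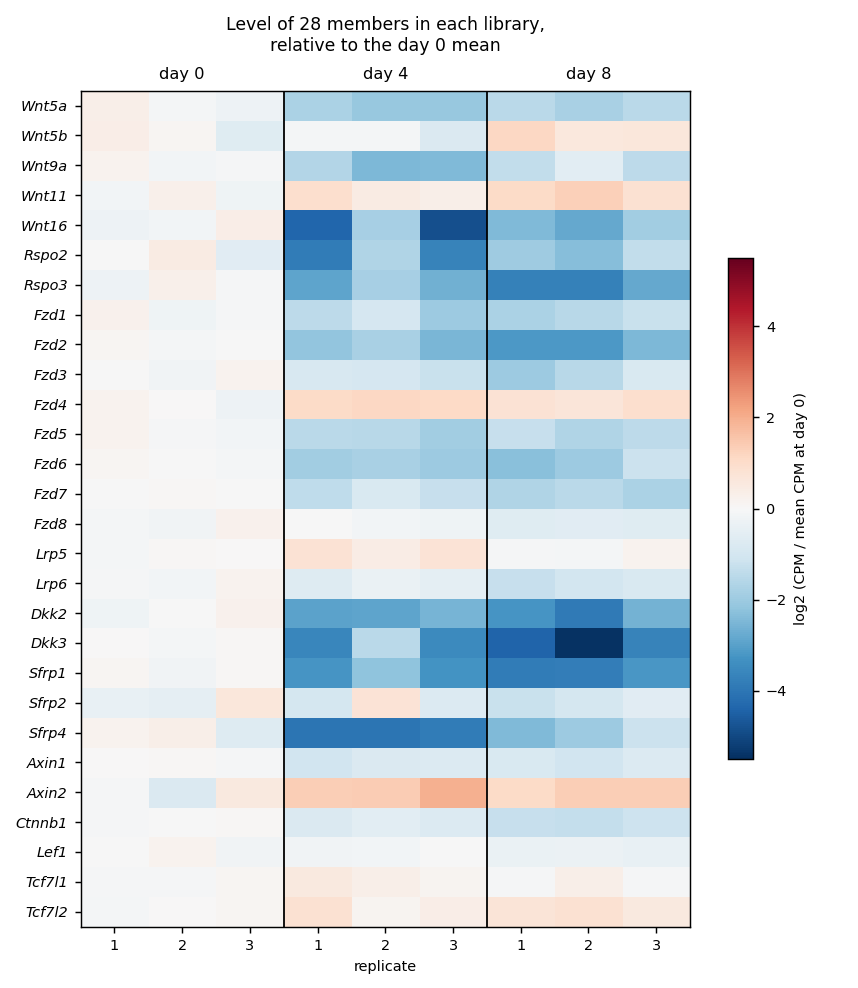
Level of 28 members in each library (columns, by day and replicate) as log2 of CPM over the member's mean CPM at day 0; blue is lower and red higher, from -5.43 to 1.97, and Wnt2, Wnt2b and Fzd9 are left out for their low counts. Day 4 replicate 2 is paler than the other day 4 libraries for Wnt16, Rspo2, Dkk3 and Sfrp1, and red for Sfrp2.

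Day 8 was set against day 4 to see which members kept moving after the first fall; as both comparisons above share the day 0 libraries, this is also the test of whether they differ. Sfrp4 was 4.54-fold higher at day 8 than at day 4 (2.18 ± 0.39, adjusted p = 0.00345) and was called in all 20 alternatives. Wnt9a and Wnt5b were also higher at day 8 (1.04 ± 0.33 and 1.12 ± 0.33, adjusted p = 0.0358 and 0.0289). Lrp5 (-0.65 ± 0.13), Lrp6 (-0.50 ± 0.14), Ctnnb1 (-0.52 ± 0.12), Fzd2 (-0.75 ± 0.22), Fzd7 (-0.48 ± 0.14), Fzd8 (-0.51 ± 0.12), Dkk3 (-1.84 ± 0.58) and Wnt2 (-2.91 ± 0.99) were lower, with adjusted p from 0.00517 to 0.0488. The day 4 and day 8 libraries overlapped for Fzd2 alone among these 11, which were picked by the test on the same libraries. Of all 14714 tested genes 6655 had no overlap between these days, beside 12 of the 31 members. Against day 0, 9548 of all genes and 24 members had no overlap at day 4, and 11182 and 28 at day 8.

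Of these 11 calls, 7 were lost when a single library was left out. The Dkk3 call was lost without day 4 replicate 2 (-0.80, adjusted p = 0.101), day 8 replicate 1 or 2 (-1.82 and -1.51), or any 1 of the day 0 libraries (-1.85, adjusted p 0.0537 to 0.0546). That of Fzd2 was lost without day 4 replicate 2 or day 8 replicate 1 or 2 (-0.64 to -0.54), Fzd7 without day 8 replicate 1 or 3 (-0.46 and -0.44) or without day 4 replicate 2 and day 8 replicate 3 together (-0.24, adjusted p = 0.0755), Lrp6 without day 4 replicate 3 or day 8 replicate 1 or 2 (-0.51 to -0.40), and Wnt5b without day 4 replicate 3 or day 8 replicate 1 or 2 (0.91 to 1.21). Wnt9a was lost without any 1 of the day 0 libraries, day 4 replicate 2 or 3 or day 8 replicate 1 or 2 (0.71 to 1.16). Wnt2 was lost without day 0 replicate 2 or 3, day 4 replicate 2 or 3 or any 1 of the day 8 libraries (-3.30 to -1.87), and without day 4 replicate 2 and day 8 replicate 3 together (-2.25, adjusted p = 0.175).

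Some members crossed the threshold the other way. Wnt16 was 0.71 ± 0.63 between day 8 and day 4 (adjusted p = 0.418), and without day 4 replicate 2 it was called higher at day 8 (2.23, adjusted p = 0.000846), as was Rspo2 (0.85 ± 0.56 with it and 1.92 without it, adjusted p = 0.268 and 0.00827). Sfrp1 (-0.76 ± 0.29, adjusted p = 0.0716) was called lower at day 8 without day 4 replicate 1 (-0.92) or day 8 replicate 3 (-0.996), and Rspo3 (-0.97 ± 0.34, adjusted p = 0.0517) likewise (-1.17 and -1.34). Dkk2 (-0.76) and Fzd3 (-0.74) were called lower without day 8 replicate 3, and Tcf7l2 higher without day 4 replicate 1 (0.44), each with its value in all libraries at -0.38, -0.38 and 0.23. Wnt5a was 0.39 ± 0.18 (adjusted p = 0.129).

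Other genes of the pathway were counted by list, with members chosen knowing earlier results of these data. The share of all tested genes called in either direction was 58.2% at day 4 and 67.7% at day 8, and the lists are read against these shares with no test. Of 11 tested genes of Wnt secretion and extracellular control, 4 were lower and 2 higher at day 4, and 6 were lower and 3 higher at day 8 (medians -0.02 and -0.74). Apcdd1, a membrane-bound inhibitor of Wnt signalling, stood at 3.01, 1.95 and 2.51 CPM at day 0, 27, 23.02 and 33.4 CPM at day 4 and 23.5, 19.6 and 24.2 CPM at day 8, well above day 0 at both days (3.48 ± 0.20 and 3.17 ± 0.20, adjusted p = 8.09e-07 and 1.27e-06). Porcn, the enzyme that attaches the lipid to Wnts, stood at 7.397, 5.105 and 5.19 CPM at day 0, 26.3, 6.41 and 16.4 CPM at day 4 and 34.3, 30.5 and 30.3 CPM at day 8. It was higher at day 4 (1.47, adjusted p = 0.0103) and at day 8, there with no overlap (2.43 ± 0.41, adjusted p = 0.000487), while day 4 replicate 2 lay within the day 0 range. Wls, the carrier that takes Wnts to the cell surface and named here after its values were seen, stood at 673, 619.8 and 659.8 CPM at day 0, 173, 293 and 187 CPM at day 4 and 167, 173 and 218 CPM at day 8. It was lower at both days (-1.58 ± 0.20 and -1.81 ± 0.20), so the footprints of the enzyme and of the carrier of Wnt secretion moved in opposite directions. Draxin, a secreted protein known from axon guidance, stood at 3.81, 3.25 and 4.97 CPM at day 0, 0.9301, 9.46 and 2.06 CPM at day 4 and 0.725, 0.855 and 1.76 CPM at day 8, with day 4 replicate 2 above all other libraries. At day 4 it was 0.05 with that library (adjusted p = 0.953) and -1.42 without it (adjusted p = 0.0144). It was lower at day 8 (-1.85 ± 0.73, adjusted p = 0.0463), a call lost without day 8 replicate 1 or 2 or any 1 of the day 0 libraries (-1.98 to -1.60).

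Of 11 tested genes of receptors outside the Frizzled family and of receptor turnover, 7 were lower at each later day. The other 4 did not pass the test (medians of the list -1.06 and -1.61). Znrf3, a ubiquitin ligase, Caprin2 and Tmem198 were among those 4 at both days. Of all genes 28.4% were lower at day 4 and 33.5% at day 8. Ptk7, a pseudokinase of planar polarity, stood at 211, 195 and 229.8 CPM at day 0, 25.2, 56.5 and 21.6 CPM at day 4 and 13.5, 16.1 and 26.6 CPM at day 8. Ror2, a receptor of Wnt5a, stood at 62.4, 68.1 and 73.3 CPM at day 0, 10.8, 18.95 and 9.696 CPM at day 4 and 7.004, 8.07 and 11.3 CPM at day 8. All later libraries of both lay below day 0 (-3.50 ± 0.39 and -2.95 ± 0.27 at day 8). Lrp4, a receptor for agrin at the nerve-muscle junction, was lower at day 8 (-3.43 ± 0.39), at -4.01 without day 4 replicate 2 and day 8 replicate 3. In the cytoplasmic list 12 of 23 were lower and 3 higher at day 4, and 11 lower and 3 higher at day 8 (medians -0.36 and -0.40). Dact3 and Dact1, which bind Dishevelled, and the Apc relative Apc2 fell furthest (-3.38 ± 0.24, -2.90 ± 0.30 and -2.65 ± 0.30 at day 8). Of 16 nuclear partners 6 were lower at each day, with 2 higher at day 4 and 1 at day 8 (medians -0.33 and -0.17), among them Sox9 (-2.86 ± 0.33), the corepressor Tle2 (-1.97 ± 0.31) and the beta-catenin partner Bcl9 (-1.15 ± 0.13) at day 8.

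Genes known as targets of beta-catenin held calls in both directions, as did all tested genes. Of 13 tested, which include Axin2 and Lef1, 5 were lower and 3 higher at day 4, and 6 were lower and 2 higher at day 8 (medians -0.14 and -0.36). Ccn4, a secreted matrix protein, stood at 170.5, 192 and 153 CPM at day 0, 10.6, 15.1 and 6.09 CPM at day 4 and 7.84, 4.92 and 11.5 CPM at day 8, lower at -4.02 ± 0.37 and -4.41 ± 0.38. Ccnd1, the cyclin of early G1, stood at 51.4, 27.1 and 47.1 CPM at day 0, 11.5, 70.1 and 17.7 CPM at day 4 and 5.804, 5.66 and 9.21 CPM at day 8. It was lower at day 8 (-2.60 ± 0.61, adjusted p = 0.00358) and not past the test at day 4 (-0.34 ± 0.57, adjusted p = 0.628), where replicate 2 was above every day 0 library. Without day 4 replicate 2 it was called lower at day 4 (-1.51, adjusted p = 0.00146). Apcdd1 and Axin2, given above, were the 2 higher at day 8. From day 4 to day 8, 3 of the 13 targets were lower and the other 10 did not pass the test. Without day 4 replicate 2 and day 8 replicate 3 together, the list of other receptors and receptor turnover had 7 lower at day 4 (of 12 tested). At day 8 it had 8 lower and 1 higher. The targets then had 6 lower and 3 higher at each later day (of 14 tested). The secretion list then had 5 lower and 2 higher at day 4 and 6 lower and 3 higher at day 8, the cytoplasmic list 12 lower and 3 higher at day 4 and 12 lower and 4 higher at day 8, and the nuclear list 6 lower and 2 higher at day 4 and 7 lower and 1 higher at day 8. Between the later days the list of other receptors and receptor turnover then held 6 lower and 2 higher genes, beside 3 lower and 1 higher in all libraries. The targets then held 4 lower and 1 higher. Of all 15012 genes in that setting, 10001 were called at day 4, 10638 at day 8 and 5481 between the later days.

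**Figure D4:**
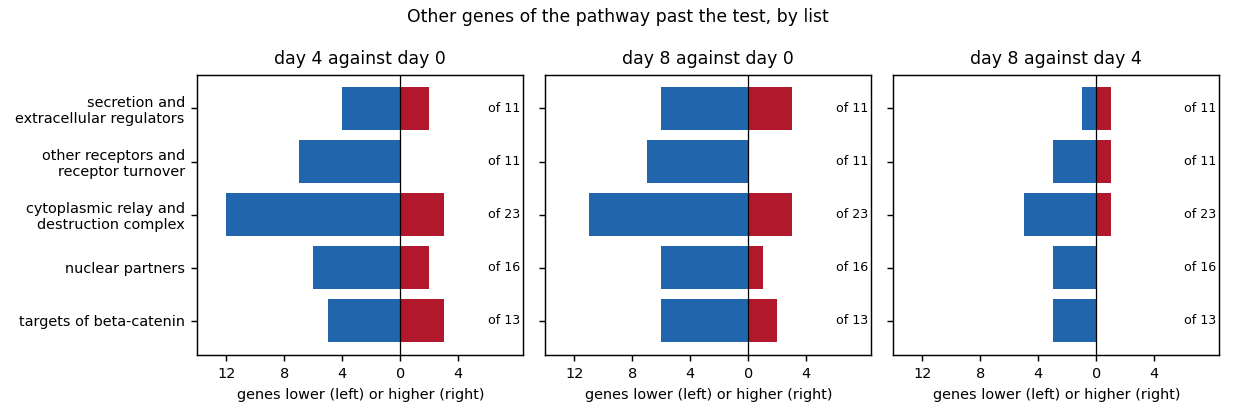
Number of genes past the test in 5 lists of further pathway genes, lower to the left and higher to the right of 0 (horizontal axis, genes), for the 3 comparisons; the number tested stands at the right of each panel. The list of other receptors and receptor turnover has 7 lower genes at both days, and the targets of beta-catenin have both lower and higher genes.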

How the data were processed

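Ribosome footprints of 9 mouse libraries were deposited as counts per gene, not normalised by the authors. Per the submitters' processing notes the tools were cutadapt, HISAT2 and featureCounts with the build GRCm39; for versions and strand setting, nothing is given in the sources used here. Per the labels' protocols, lysates were treated with cycloheximide and RNase I. A footprint count moves both with mRNA abundance and with ribosome loading.

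Counts were tested with edgeR 4.0.16 in R 4.3.3 (limma 3.58.1): filterByExpr with a minimum count of 10, TMM scaling, 1 quasi-likelihood fit over the 3 days, and Benjamini-Hochberg adjustment over all 14714 tested genes, with calls at an adjusted p under 0.05. A standard error (SE) is the log2 fold change over the root of the F statistic. CPM use TMM-scaled library sizes. The spread behind each p-value is that between libraries, which may be technical. The steps were tested on simulated data. Alternatives included DESeq2 1.42.0, limma-voom, other scalings and filters, a 1.5-fold threshold, a replicate block and each library left out. The setting without the pair of libraries that stood apart was added after seeing the data.

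All tested members are named with their libraries' values, except Fzd9, given by its range. Further genes are those with the largest called changes at day 8 in each list, and Wls, which was added outside this rule after its values were seen. The members and lists were chosen with earlier results of these data known. Promoters come from RefSeq tables; protein sequences and gene lengths were not used here, so levels are not compared between genes.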

Additional observations from a re-analysis of the deposited data

Results flagged for a closer look

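For 11 members the change against day 0 differed between day 8 and day 4 by the test of day 8 against day 4 itself (log2, adjusted p under 0.05 over all genes). The difference was 2.18 for Sfrp4, 1.12 for Wnt5b and 1.04 for Wnt9a, higher at day 8. It was -0.48 for Fzd7, -0.5 for Lrp6, -0.51 for Fzd8, -0.52 for Ctnnb1, -0.65 for Lrp5, -0.75 for Fzd2, -1.84 for Dkk3 and -2.91 for Wnt2, lower at day 8. The Wnt2 value rests on 0 to 2 counts per day 8 library.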

How the results depend on the processing

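Over 20 alternatives, 17 of the 22 member calls at day 4, 22 of the 26 at day 8 and 1 of the 11 between day 8 and day 4 (Sfrp4) were kept wherever the gene was tested. Between day 8 and day 4 the count of called members was 7 under library totals, 1 with a 1.5-fold threshold, 5 with only the libraries compared and 7 with the replicate block, and 4 to 14 with a library left out. Of all 14714 tested genes 4676 were called in the main fit. In these settings in turn 4968, 1097, 3307 (of 14113 tested) and 4079 were called, and 2706 to 4899 with a library left out. Leaving out a library gave 21 to 24 calls at day 4 and 25 to 27 at day 8, beside 7289 to 9609 and 9135 to 10693 over all genes. Library totals also moved the split of all called genes between day 8 and day 4, to 65.9% higher and 34.1% lower from 46.2% and 53.8%, and shifted the median of all genes by 0.142. At day 4 library totals shifted it by -0.154 and upper quartile scaling by -0.127, and at day 8 upper quartile scaling did by -0.107.

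Values that were not called changed sign in a few settings, and the cause was not tested. At day 4, with a library left out, Fzd8 ranged from -0.223 to 0.008 (without day 0 replicate 3) and Sfrp2 from -0.86 (without day 4 replicate 2, where it was called) to 0.349 (without day 0 replicate 3), with 0.20 and 0.143 without day 4 replicate 1 or 3. At day 8, Lrp5 was -0.01 under library totals, -0.003 with limma-voom, -0.106 under upper quartile scaling, -0.006 with the replicate block, -0.087 (without day 8 replicate 3) to 0.07 with a library left out, -0.041 of these without day 0 replicate 1, and -0.095 without day 4 replicate 2 and day 8 replicate 3. Tcf7l1 at day 8 was -0.026 under upper quartile scaling and -0.046 (without day 8 replicate 2) to 0.161 with a library left out.

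The replicate numbers are shared between days, and no label states a pairing. Deviations of same-numbered libraries correlated at -0.20 to 0.188, beside -0.296 to 0.314 for other numbers, and the main fit did not pair the samples. Between day 0 and day 8 alone, same-numbered libraries correlated at 0.071 to 0.121, beside -0.103 to 0 for other numbers. These values do not settle whether the numbers pair the samples. With the replicate block 21 members were called at day 4 and 26 at day 8, and the day 4 call of Tcf7l2 was lost (0.463, adjusted p = 0.0551). The calls of Dkk3, Wnt9a, Fzd2 and Wnt2 between day 8 and day 4 were lost with it as well. Members below the filter (19) could be tested only without it and only if they had counts, where their low counts limit the precision.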

Other observations

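The make-up of the receptor counts differed between days, as values with no test and without correction for gene length. Fzd4 held 33.6 to 36.6% of all Frizzled counts in day 8 libraries and 29.9 to 37.8% in day 4 libraries, against 7.11 to 8.96% in day 0 libraries. A share also moves with the rest of its class. All Frizzled counts together were 15169 to 17457 per library at day 0 and 6912 to 7969 at day 8. The overlap of Fzd4 with Tmem135 applies here too. Fzd2 held 9.64 to 13.7% at day 8 and 12.5 to 16.1% at day 4, against 33.2 to 34.4% at day 0. Lrp6 held 58.6 to 63.5% of the Lrp5 and Lrp6 counts at day 8 and 53.6 to 65.3% at day 4, against 73.9 to 78.0% at day 0.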
